A study of Homo sapiens with 6 samples.

Results

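A set of 49 genes of striated muscle, 49 of the 19817 protein-coding genes of the reference annotation, was examined for sites of acetylated NEIL1 in a colon cancer cell line. The set holds sarcomere components other than the troponins, together with genes of muscle calcium handling, energy supply, membranes and myogenic control. It was chosen by function, from named genes, with the peaks of these same libraries already known, so all counts over the set are given as description without a test. By the tissue in which each gene is mainly used, 25 members were classed as skeletal, 8 as cardiac and 16 as shared by both.

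NEIL1 is a repair enzyme that cuts oxidised bases out of DNA, the opening step of base excision repair, and AcNEIL1 is its acetylated form. Its genomic sites were mapped by ChIP-seq, the sequencing of DNA recovered with an antibody from crosslinked chromatin, in HCT116, an established line from a human colorectal adenocarcinoma, grown without any added agent and crosslinked with formaldehyde while growing exponentially. The series held 3 ChIP libraries made with a custom rabbit antibody to AcNEIL1 and 3 libraries of input DNA taken before immunoprecipitation, all from the unmodified line, and the authors called peaks in each ChIP library against the input of the same number. Every value below is therefore from 1 condition, and the replicates are ChIP libraries 1, 2 and 3. Whether these were separate cultures is not said in the labels, and an SD over them may reflect technical spread alone. Peak calls measure no RNA, and neither the identity of the line nor the activity of these genes was checked here.

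Striated muscle contracts by sliding thick filaments of myosin past thin filaments of actin within the sarcomere, whose repeats are bounded by Z-discs and held in register by titin. Contraction is switched on when calcium leaves the sarcoplasmic reticulum through ryanodine receptors and is switched off when the SERCA pump returns it. Most of these proteins come in skeletal and cardiac versions encoded by sister genes, and in skeletal muscle precursors their genes are switched on by the basic helix-loop-helix factors MYF5, MYOD1, MYF6 and MYOG. These factors bind short E-box sequences, of which CAGCTG is a common form. Colon epithelium is not a tissue in which this programme normally runs.

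A gene end was defined as the stretch within 1 kb on either side of either limit of the annotated gene, and a gene was counted there when a peak overlapped it by at least 1 bp. The extended gene was the whole gene with 10 kb added on both sides. A peak means that the authors' caller found an excess of ChIP tags over the local background of the input at a q-value cutoff of 0.05, and its fold is the authors' own ratio of ChIP to background at the summit. A gene-end fold below is that of the strongest gene-end peak in each replicate, taken at either end. It can come from different ends in different replicates, as at ACTN3, MYLPF, MYBPC3, MYBPH, CAV3, XIRP1 and SRL. Its SD is then not the spread of 1 site. Where no peak is listed, nothing passed that cutoff at this depth. The deposited lists held 39898, 60233 and 49731 peaks, from 31921768, 28814429 and 35222701 ChIP tags in replicates 1, 2 and 3, and 183, 297 and 240 of these peaks lay on extended members, in the same order as the lengths of the lists.

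Promoter sequences of a few members are shown first because a peak lay on them in every replicate. RefSeq (GRCh38.p14) promoter windows, from 250 bases before to 50 bases after the annotated start, were matched for 36 of the 49 members. A peak lay on the window in all 3 replicates at 5 of the 36: HRC, CKM, PERM1, CAV3 and MYBPC3. Over all 15811 protein-coding promoters the share was 1.69%. The capitals mark CAGCTG, which reads the same on both strands, and the MYBPC3 window holds none.
HRC, chr19:49155347-49155646, minus strand: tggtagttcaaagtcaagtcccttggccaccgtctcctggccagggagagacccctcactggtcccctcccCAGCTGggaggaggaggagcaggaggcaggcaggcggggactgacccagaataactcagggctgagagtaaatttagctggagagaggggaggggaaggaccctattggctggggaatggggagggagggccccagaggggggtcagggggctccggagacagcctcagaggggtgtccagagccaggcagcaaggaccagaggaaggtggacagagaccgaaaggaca
CKM, chr19:45322826-45323125, minus strand: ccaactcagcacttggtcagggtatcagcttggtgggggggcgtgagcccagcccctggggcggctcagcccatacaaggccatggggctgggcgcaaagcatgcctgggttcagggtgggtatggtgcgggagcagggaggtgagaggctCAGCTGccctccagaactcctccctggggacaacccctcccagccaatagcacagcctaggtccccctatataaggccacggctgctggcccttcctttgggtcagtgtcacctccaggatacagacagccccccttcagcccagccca
PERM1, chr1:982044-982343, minus strand: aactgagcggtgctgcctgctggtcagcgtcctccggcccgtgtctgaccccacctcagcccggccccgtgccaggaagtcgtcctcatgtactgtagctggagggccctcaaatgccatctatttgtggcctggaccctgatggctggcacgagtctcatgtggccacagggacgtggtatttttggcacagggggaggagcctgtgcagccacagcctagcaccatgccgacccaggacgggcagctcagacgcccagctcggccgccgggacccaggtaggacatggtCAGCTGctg
CAV3, chr3:8733552-8733851, plus strand: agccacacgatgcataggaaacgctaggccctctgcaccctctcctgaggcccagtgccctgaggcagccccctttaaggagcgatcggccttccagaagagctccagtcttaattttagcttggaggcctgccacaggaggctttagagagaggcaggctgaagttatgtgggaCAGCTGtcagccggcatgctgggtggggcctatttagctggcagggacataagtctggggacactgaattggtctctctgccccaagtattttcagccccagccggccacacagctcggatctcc
MYBPC3, chr11:47352653-47352952, minus strand: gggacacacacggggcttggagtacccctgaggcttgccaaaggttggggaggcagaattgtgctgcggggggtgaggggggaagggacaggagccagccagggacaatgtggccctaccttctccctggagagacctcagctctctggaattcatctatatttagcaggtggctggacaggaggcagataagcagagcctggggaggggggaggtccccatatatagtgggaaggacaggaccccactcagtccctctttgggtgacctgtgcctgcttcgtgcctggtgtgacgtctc
Peaks of all 3 replicates covered all 300 bases of the HRC, CKM and PERM1 windows together, 149 bases of the MYBPC3 window and 58 bases of the CAV3 window. CAGCTG was present in 4 of these 5 windows and in 13 of the 36 member windows (36.1%), against 17.6% of all protein-coding promoters and 29.6% of the 267 promoters with a peak in all 3 replicates. A match is a string of letters in a window and was not tested as a binding site. For contrast, the windows of MYH4, the fast IIb myosin heavy chain, and ACTN2, the Z-disc crosslinker alpha-actinin 2, also hold CAGCTG and had no peak in any replicate.
MYH4, chr17:10469510-10469809, minus strand: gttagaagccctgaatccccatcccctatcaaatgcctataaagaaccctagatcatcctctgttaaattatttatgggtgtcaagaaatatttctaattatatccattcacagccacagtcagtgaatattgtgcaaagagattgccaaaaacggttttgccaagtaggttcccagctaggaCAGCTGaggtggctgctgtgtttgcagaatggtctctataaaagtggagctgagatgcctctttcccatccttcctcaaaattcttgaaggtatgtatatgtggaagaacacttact
ACTN2, chr1:236686249-236686548, plus strand: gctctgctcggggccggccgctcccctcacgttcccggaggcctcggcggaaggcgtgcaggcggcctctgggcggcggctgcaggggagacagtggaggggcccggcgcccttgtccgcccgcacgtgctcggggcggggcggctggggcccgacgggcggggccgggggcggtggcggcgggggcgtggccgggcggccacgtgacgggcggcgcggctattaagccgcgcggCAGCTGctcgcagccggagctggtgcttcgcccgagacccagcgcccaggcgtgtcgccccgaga
These 2 windows differ in composition, with 41.0% G or C and 1 CpG in MYH4 and 80.3% G or C and 45 CpGs in ACTN2. HRC, CKM, PERM1, CAV3 and MYBPC3 lay between them, at 58.0% to 64.7% G or C and 4 to 15 CpGs. That range was not particular to windows with peaks. The windows of MYBPH, at 64.7% G or C, and ATP2A1, at 61.0%, lay in it with 5 CpGs each. Both hold CAGCTG, and no peak lay on either window in any replicate. The median over the 36 member windows was 57.9% G or C and 5 CpGs, below the medians of 62.7% and 22 CpGs over all promoters. Among members, the median was 60.9% in the 18 with a peak in the extended gene in all 3 replicates and 46.4% in the 16 without any peak. The part of base composition in these calls was not tested.

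AcNEIL1 peaks divided the muscle genes into members with peaks in every library and members with none. A gene-end peak was called in all 3 replicates at 19 of 49 members (38.8%), beside a background of 9.03% of protein-coding genes, and in at least 2 replicates at 24 members (49.0%), beside 15.2%. In single replicates, 24, 26 and 21 members had a gene-end peak, 48.3% ± 5.14 of the set (SD, n = 3), against 16.6% ± 3.18 of protein-coding genes. In the extended gene, 28 members (57.1%) had a peak in all 3 replicates, beside 34% of protein-coding genes. At the other extreme, 18 members (36.7%) had no peak in the extended gene in any replicate, beside 43.3%, and 3 members, ACTA1, ATP2A1 and MYOD1, had peaks in 1 or 2 replicates. The median member had 0.445, 1.34 and 0.352 summits per 10 kb of extended gene in replicates 1, 2 and 3, 0.711 ± 0.543 (SD, n = 3), while the median over all protein-coding genes was 0 in each. Replicate 2, the longest list, raised this mean, which was 0.398 without it. Because the set was assembled with these peaks known, nothing is read from the excess over the background.

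Gene length was recorded beside these counts, since a longer gene offers more room in its body and a shorter one has ends that make up more of it. Of the 15 members under 10 kb, 6 had a gene-end peak in all 3 replicates, beside 14% of protein-coding genes of that length. The count was 11 of 25 members from 10 to 50 kb, beside 9.41%, and 2 of 9 members over 50 kb, beside 4.10%. The member share was above that of genes of like length in each band, with few members in the longest. As the set was assembled with these peaks known, nothing is read from this either.

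The plot of summit density by member shows the split. Each class held members without a summit and members with a mean above 3 summits per 10 kb, and the 3 replicates kept nearly the same order of genes. For each pair of replicates, 47 of the 49 members had the same status, with or without a peak in the extended gene, and Spearman's rho of the density over the 49 members was 0.916 for replicates 1 and 2, 0.939 for 1 and 3 and 0.959 for 2 and 3. These correlations describe genes that share libraries and neighbourhoods. The limit of 10 kb mattered for few genes: MYL7 in replicate 3 was just inside it, with the nearest peak at 9.88 kb from the gene, and MYOD1 in replicate 1 was just outside it, at 10.6 kb.

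**Figure D1:**
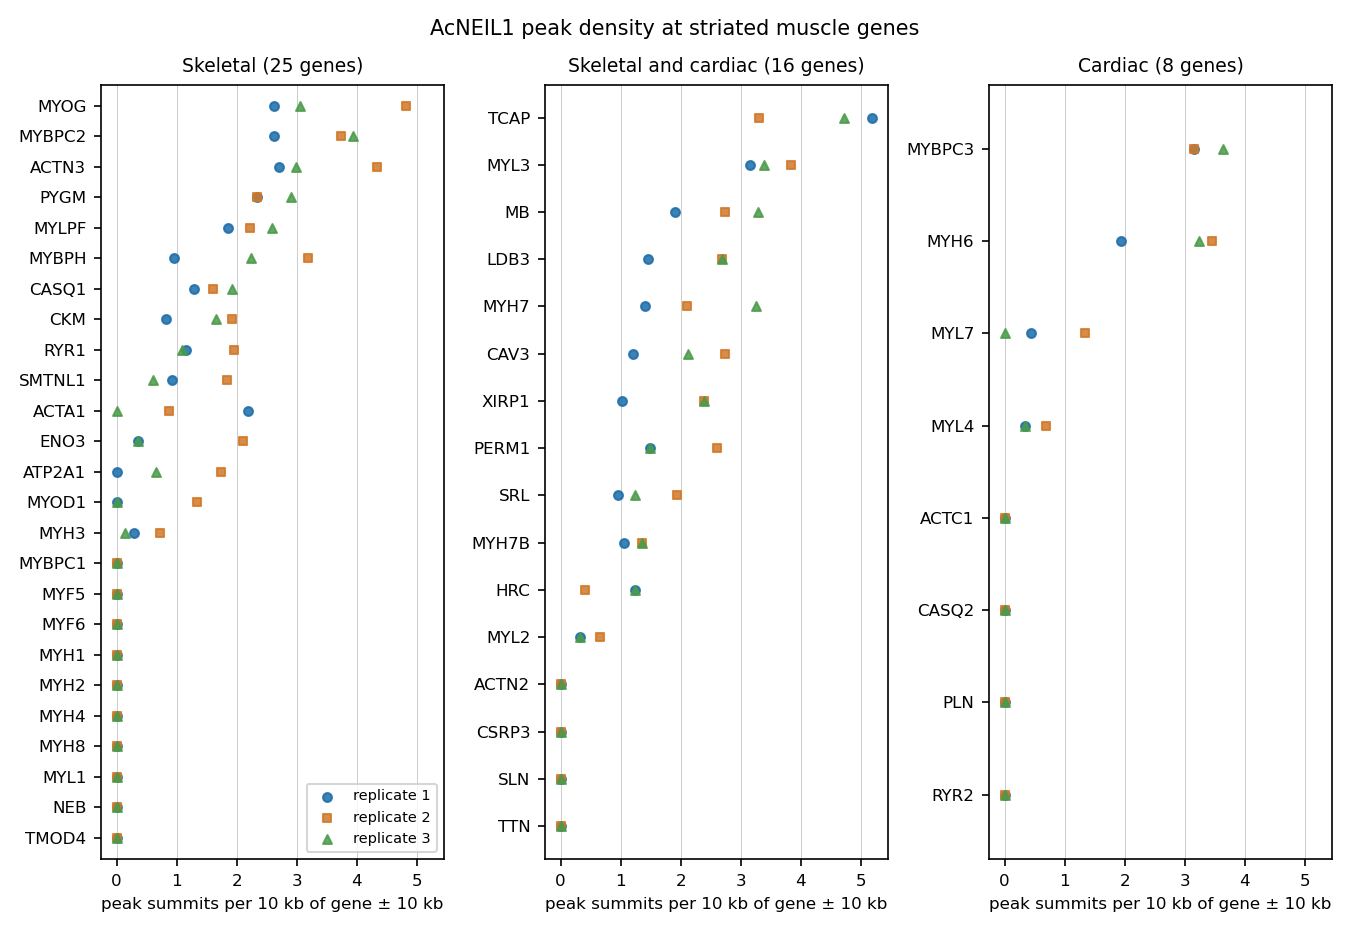
Peak summits per 10 kb of the gene with 10 kb on either side, for each of the 49 members by class (panels) and replicate (symbols). TCAP has the highest mean density, 4.40, and 18 members lie at 0 in all 3 replicates.

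The myosin heavy chains, which are the motors of the thick filament, were split between clusters of sister genes. MYH6 and MYH7, the alpha and beta heavy chains of heart that lie side by side on chromosome 14, had 9, 17 and 15 peaks and 6, 9 and 14 peaks in their extended genes in replicates 1, 2 and 3. These extended genes overlap, so some peaks were counted for both. MYH7B, a related heavy chain of slow muscle and heart on chromosome 20, had 7, 9 and 9 peaks, nearly all inside the gene.

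Skeletal heavy chains are arranged as a cluster on chromosome 17. MYH1, MYH2, MYH4 and MYH8, the fast and perinatal chains there, had no peak in any replicate, whereas MYH3, the embryonic chain at the edge of the cluster, had 2, 5 and 1. The nearest peaks to MYH2 were 70.1, 105 and 76.7 kb away. Within this family of 8, only MYH7 (12.5%) had a gene-end peak in all 3 replicates, near the 9.03% of protein-coding genes. The MYH7 folds were 3.33, 4.28 and 3.11, 3.58 ± 0.622 (SD, n = 3). Its shared site, chr14:23410026-23412782, spans the end of MYH7 that faces MYH6, and 458 bp of it were covered in all 3 replicates.

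These heavy chain genes also host small RNAs of the heart and slow fibre programme. The mature forms from RefSeq are shown with the seed, bases 2 to 8, in capitals, because 2 of their 3 hairpins lay at or near peaks.
hsa-miR-208a-3p, in MYH6: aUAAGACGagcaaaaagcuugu
hsa-miR-208b-3p, in MYH7: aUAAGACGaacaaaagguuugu
hsa-miR-499a-5p, in MYH7B: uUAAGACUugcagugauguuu
The seeds of miR-208a-3p and miR-208b-3p were the same, UAAGACG, and that of miR-499a-5p was UAAGACU. The nearest peak lay 54, 68 and 0 bp from the miR-208a hairpin, chr14:23388596-23388666, in replicates 1, 2 and 3. For miR-208b, chr14:23417987-23418063, the distances were 877, 0 and 0 bp, and for miR-499a, chr20:34990376-34990497, they were 4473, 4250 and 3733 bp. The peaks of the 3 replicates near miR-208a merged into chr14:23387917-23389420, although no base of that stretch was covered in all 3.

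Myosin light chains stabilise the neck of the heavy chain. Of the 6 members, 5 had a peak in the extended gene in all 3 replicates, beside 34% of protein-coding genes. MYL3, the essential light chain of ventricle and slow fibres, had 14, 17 and 15 peaks, which covered 17.4%, 41.8% and 20.6% of its extended gene. The shared MYL3 region with the highest mean fold, 4.95, was chr3:46872019-46878525 in the gene body. It also lay on a gene end of the neighbour PTH1R. The strongest gene-end peaks of MYL3 had folds of 4.58, 4.03 and 4.08, 4.23 ± 0.304 (SD, n = 3). MYLPF, the fast skeletal regulatory light chain, listed in RefSeq as MYL11, had gene-end folds of 4.03, 3.54 and 4.77, 4.11 ± 0.621 (SD, n = 3).

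MYL2, the slow and ventricular regulatory light chain, was at the low end, with 1, 2 and 1 peaks and gene-end folds of 3.07, 3.04 and 3.63, 3.25 ± 0.329 (SD, n = 3), and its peaks did not share a region between the replicates. MYL4 and MYL7, the atrial light chains, had 2, 4 and 2 peaks and 1, 3 and 2 peaks without a gene-end peak in every replicate. In replicate 3, both peaks counted for MYL7 had their summits outside the extended gene. MYL1, the fast skeletal essential light chain, had no peak, and its nearest ones were 2460, 164 and 2460 kb away. MYL3 and MYLPF thus carried most of the light chain peaks, MYL2, MYL4 and MYL7 a few each, and MYL1 none.

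Myosin binding proteins, which brace the thick filament, had peaks in the extended gene in all 3 replicates at 3 of 4 members, beside 34% of protein-coding genes. MYBPC2, the fast form, had 14, 21 and 21 peaks and gene-end folds of 5.35, 4.38 and 5.57, 5.10 ± 0.631 (SD, n = 3). MYBPC3, the cardiac form, had 13, 13 and 15 peaks and gene-end folds of 4.53, 3.45 and 3.84, 3.94 ± 0.549 (SD, n = 3). MYBPH, a smaller relative, had gene-end folds of 3.07, 4.39 and 3.94, 3.8 ± 0.672 (SD, n = 3).

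MYBPC1, the slow form on chromosome 12, had no peak over its 101 kb, and no summit lay within the 500 kb on either side in any replicate. The density around MYBPC2 was 87.3 summits per Mb, and that around MYBPC3 was 32.3.

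Among the genes of actin and actin filaments few members had peaks. ACTC1, the cardiac actin, NEB, the giant ruler nebulin, and TMOD4, the pointed-end cap of skeletal muscle, had none in any replicate. ACTA1, the skeletal actin, had 5, 2 and 0 peaks, with gene-end folds of 3.59 in replicate 1 and 4.58 in replicate 2. XIRP1, which binds and protects actin filaments in both muscles, was the one member of this role with a gene-end peak in every replicate, at folds of 2.36, 4.75 and 3.03, 3.38 ± 1.23 (SD, n = 3). Thus 1 of the 5 actin and actin filament members (20.0%) was called at gene ends in all 3 libraries, beside 9.03% of protein-coding genes.

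Titin and the Z-disc were divided evenly, with 3 members called at gene ends in all 3 replicates and 3 without any peak. The shares over all protein-coding genes were 9.03% and 43.3%. TCAP, the titin cap of the Z-disc, is a gene of 1.21 kb whose extended gene held 11, 7 and 10 peaks. They covered 28.0%, 51.3% and 37.4% of it, and the gene-end folds were 3.11, 5.17 and 4.22, 4.17 ± 1.03 (SD, n = 3). The shared region, chr17:39665003-39669750, also lay on gene ends of the neighbours PNMT and STARD3.

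LDB3, a PDZ and LIM protein of the Z-disc, had 13, 25 and 24 peaks and gene-end folds of 2.69, 4.05 and 3.76, 3.5 ± 0.712 (SD, n = 3). ACTN3, the fast fibre alpha-actinin, had 10, 16 and 11 peaks and gene-end folds of 3.53, 3.55 and 3.95, 3.68 ± 0.236 (SD, n = 3). The members without a peak were ACTN2, its sister, CSRP3, a LIM protein of the Z-disc, and TTN, which encodes titin over 281 kb. Peaks nearest to TTN were 467, 680 and 1260 kb away.

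Among calcium handling genes, sister pairs differed in their peaks. RYR1, the calcium release channel of skeletal muscle, had 20, 34 and 19 peaks, almost all within its 154 kb, and RYR2, the channel of heart, had none over 792 kb. CASQ1, the calcium buffer calsequestrin of skeletal muscle, had 4, 5 and 6 peaks, and CASQ2, the cardiac form, had none. PLN and SLN, small peptides that restrain the SERCA pump, had no peak, and ATP2A1, the fast fibre pump itself, had 0, 8 and 3.

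HRC, a calcium-binding protein of the sarcoplasmic reticulum (NCBI Gene 3270), had gene-end folds of 5.90, 8.26 and 6.87, 7.01 ± 1.19 (SD, n = 3). The site was a single broad region, chr19:49152482-49157612, of which 4409 bp were covered in all 3 replicates. It ran over the start of HRC and most of its 4.20 kb and also over a gene end of TRPM4, and the promoter printed above lies inside it. The strongest summits, at 49157042, 49156441 and 49156832 in replicates 1, 2 and 3, lay more than 1 kb before the start of HRC at 49155396. Only the breadth of these peaks brought them onto the gene end. SRL, sarcalumenin, another calcium-binding protein of that compartment, had gene-end folds of 2.49, 4.78 and 4.01, 3.76 ± 1.16 (SD, n = 3). These SRL peaks lay at 1 end of the gene in replicates 1 and 3 and at the other end in replicate 2. HRC and SRL were the 2 of 9 calcium handling members (22.2%) called at gene ends in all 3 replicates, beside 9.03% of protein-coding genes.

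Energy and oxygen genes were the fullest of the larger roles. A peak in the extended gene was called in all 3 replicates at 5 of 5 members, beside 34% of protein-coding genes. PERM1, a muscle regulator of mitochondrial and contractile genes (NCBI Gene 84808), had gene-end folds of 5.11, 9.28 and 7.05, 7.15 ± 2.09 (SD, n = 3), the highest mean of the set. Its region, chr1:978406-984000, had 4258 bp covered in all 3 replicates and contains the promoter shown above. CKM, the muscle creatine kinase (NCBI Gene 1158), had gene-end folds of 3.52, 3.76 and 7.46, 4.91 ± 2.21 (SD, n = 3), with replicate 3 well above the other 2. The CKM region, chr19:45321836-45324948, had 2121 bp covered in all 3 replicates.

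PYGM, the muscle glycogen phosphorylase, had gene-end folds of 3.08, 4.40 and 3.69, 3.72 ± 0.660 (SD, n = 3), at an end shared with RASGRP2. MB, which encodes myoglobin, the oxygen store of the fibre, had 7, 10 and 12 peaks, with a gene-end peak in replicates 1 and 2 only. ENO3, the muscle enolase, had 1, 6 and 1. MB and ENO3 thus carried peaks mainly in the body of the gene.

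Membrane and contraction regulators numbered 2, and both were called at gene ends in every library, beside 9.03% of protein-coding genes. CAV3, the caveolin of the muscle membrane (NCBI Gene 859), had gene-end folds of 3.76, 4.99 and 4.90, 4.55 ± 0.686 (SD, n = 3), with a shared region at each end of the gene, chr3:8733221-8734750 and chr3:8745049-8746875. SMTNL1, a smoothelin-like regulator of contraction, had gene-end folds of 3.03, 3.54 and 3.51, 3.36 ± 0.286 (SD, n = 3), but its gene-end peaks did not share a region.

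Of the myogenic factors, MYOG alone had peaks in all 3 replicates. MYOG, which drives terminal differentiation, had 6, 11 and 7 peaks and gene-end folds of 3.76, 4.24 and 2.69, 3.56 ± 0.793 (SD, n = 3). MYOD1, the founding factor of the family, had 0, 3 and 0 peaks. MYF5 and MYF6, which lie next to each other on chromosome 12, had none, and the density around them was 0.333 summits per Mb.

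**Figure D2:**
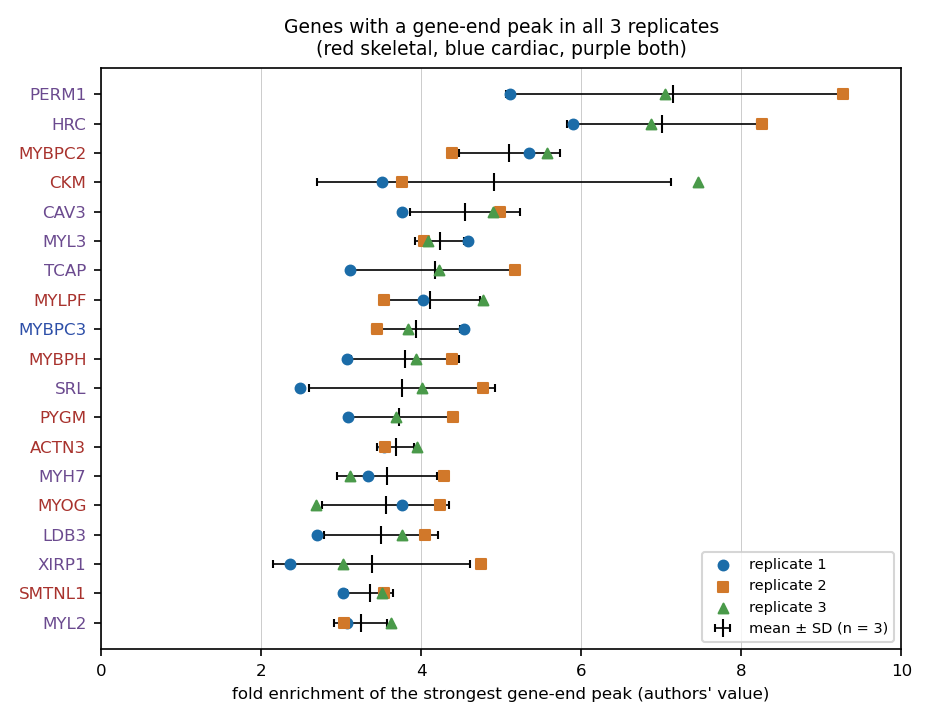
Fold enrichment (authors' value) of the strongest gene-end peak of the 19 members with such a peak in all 3 replicates, by replicate (symbols), with mean and SD. The peak is the strongest at either end, so replicates of a gene can show different ends. PERM1 and HRC have the highest means, 7.15 and 7.01, and MYL2 has the lowest, 3.25.

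Skeletal members had a gene-end peak more often than cardiac members in each replicate, by a margin that varied widely. A gene-end peak in all 3 replicates was found at 8 of 25 skeletal members (32.0%), beside 9.03% of all protein-coding genes. Of the 8 cardiac members it was found at 1 (12.5%), MYBPC3, a share near that background. In at least 2 replicates it was found at 10 (40.0%) and 3 (37.5%), beside 15.2%, with MYH6 and MYL7 added among cardiac members. By replicate, the skeletal share with a gene-end peak was 40.0%, 52.0% and 36.0%, and the cardiac share was 37.5%, 25% and 25%. The difference was 2.5, 27 and 11 percentage points, 13.5 ± 12.4 (SD, n = 3), so the mean was about the size of its spread, and an exact sign-flip test over 3 libraries could not go below p = 0.25. The extended gene gave 12 skeletal (48.0%) and 4 cardiac members (50.0%) with a peak in all 3 replicates, beside 34% of protein-coding genes. With gene ends narrowed to 500 bp the difference in the share called in all 3 replicates turned from 19.5 to -0.5 points, and without replicate 2 it was 7.0.

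Members used in both muscles had the highest shares: 10 of 16 (62.5%) had a gene-end peak in all 3 replicates and 12 of 16 (75%) a peak in the extended gene. Over all protein-coding genes these shares were 9.03% and 34%. The members were HRC, PERM1, CAV3, MYL3, TCAP, SRL, MYH7, LDB3, XIRP1 and MYL2 at gene ends, with MB and MYH7B added in the extended gene. The share with a gene-end peak was 66.7% ± 3.61 over the replicates, above 42.7% ± 8.33 for skeletal and 29.2% ± 7.22 for cardiac members (SD, n = 3). In each replicate the shared members had the highest share and the cardiac members the lowest. Across replicates, the ranges of the skeletal (36.0% to 52.0%) and cardiac members (25% to 37.5%) overlapped. Classes were assigned by hand, and with MYH7, MYL2, MYL3, CSRP3 and SLN counted as cardiac, the skeletal minus cardiac difference was 1.23 points.

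By position, each summit was placed at a gene end, in the rest of the body or in the flanks out to 10 kb. Summits at the ends of members numbered 179, 179 and 118 per Mb in replicates 1, 2 and 3, 159 ± 35.5 (SD, n = 3), beside 53.2 ± 9.75 at the ends of all protein-coding genes. Member bodies had 61.1 ± 14.7 and member flanks 71.3 ± 24.8 summits per Mb, beside 22.2 ± 4.71 and 36.3 ± 6.57 for all protein-coding genes (SD, n = 3). Density was thus higher on members in all 3 places, and the ends were the densest place both on members and on genes at large. In numbers, most member summits still lay in the body, 61.7% ± 4.37, with 13.6% ± 4.91 at the ends, beside 71.4% ± 0.776 and 10.2% ± 0.279 for all protein-coding genes (SD, n = 3).

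Cardiac bodies were the exception, at 17.9, 23.1 and 17.9 summits per Mb, close to the 17.5, 26.9 and 22.1 of all protein-coding genes. RYR2, 792 kb long and without a peak, makes up most of that territory of 0.951 Mb. At gene ends, skeletal members had 127 ± 41.7, cardiac members 115 ± 18 and shared members 232 ± 55.5 summits per Mb (SD, n = 3), so the skeletal and cardiac values lay within each other's spread.

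**Figure D3:**
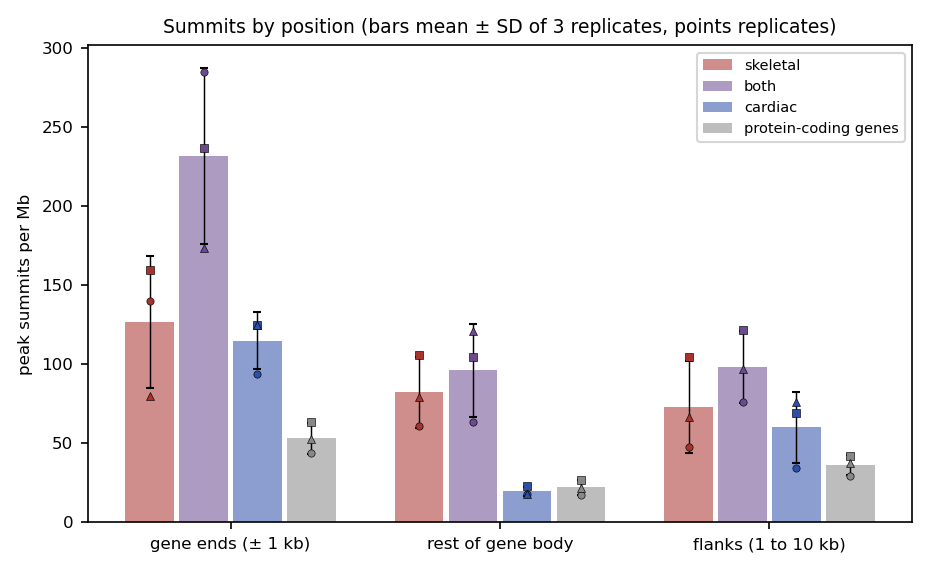
Peak summits per Mb at gene ends, in the rest of the gene body and in flanks of 1 to 10 kb, for the 3 muscle classes and all protein-coding genes; bars are means of 3 replicates, error bars SD and points replicates. Members used in both muscles are highest at gene ends (232), and cardiac bodies (19.6) are close to all genes (22.2).

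For the 36 members with a strand in the promoter table, the start of the gene could be told from its finish. A peak lay at the start in 12, 14 and 11 members and at the finish in 11, 12 and 6 in replicates 1, 2 and 3. A peak at the start in all 3 replicates was found at 9 members (MYL3, MYBPC3, LDB3, CKM, HRC, MYOG, CAV3, SMTNL1 and PERM1), beside 4.59% of the 15811 protein-coding genes with a strand. At the finish it was found at 4 (MYBPC3, CAV3, PERM1 and XIRP1), beside 4.24%, and the difference between starts and finishes was not tested. Summits in the body were divided about evenly, with 54.7%, 50.4% and 51.0% on the start side of the gene's midpoint. The plot of summits along single genes shows strong summits close to the start in CKM and more than 1 kb before it in HRC. Summits were spread over the gene in MYBPC3, MYL3 and LDB3.

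**Figure D4:**
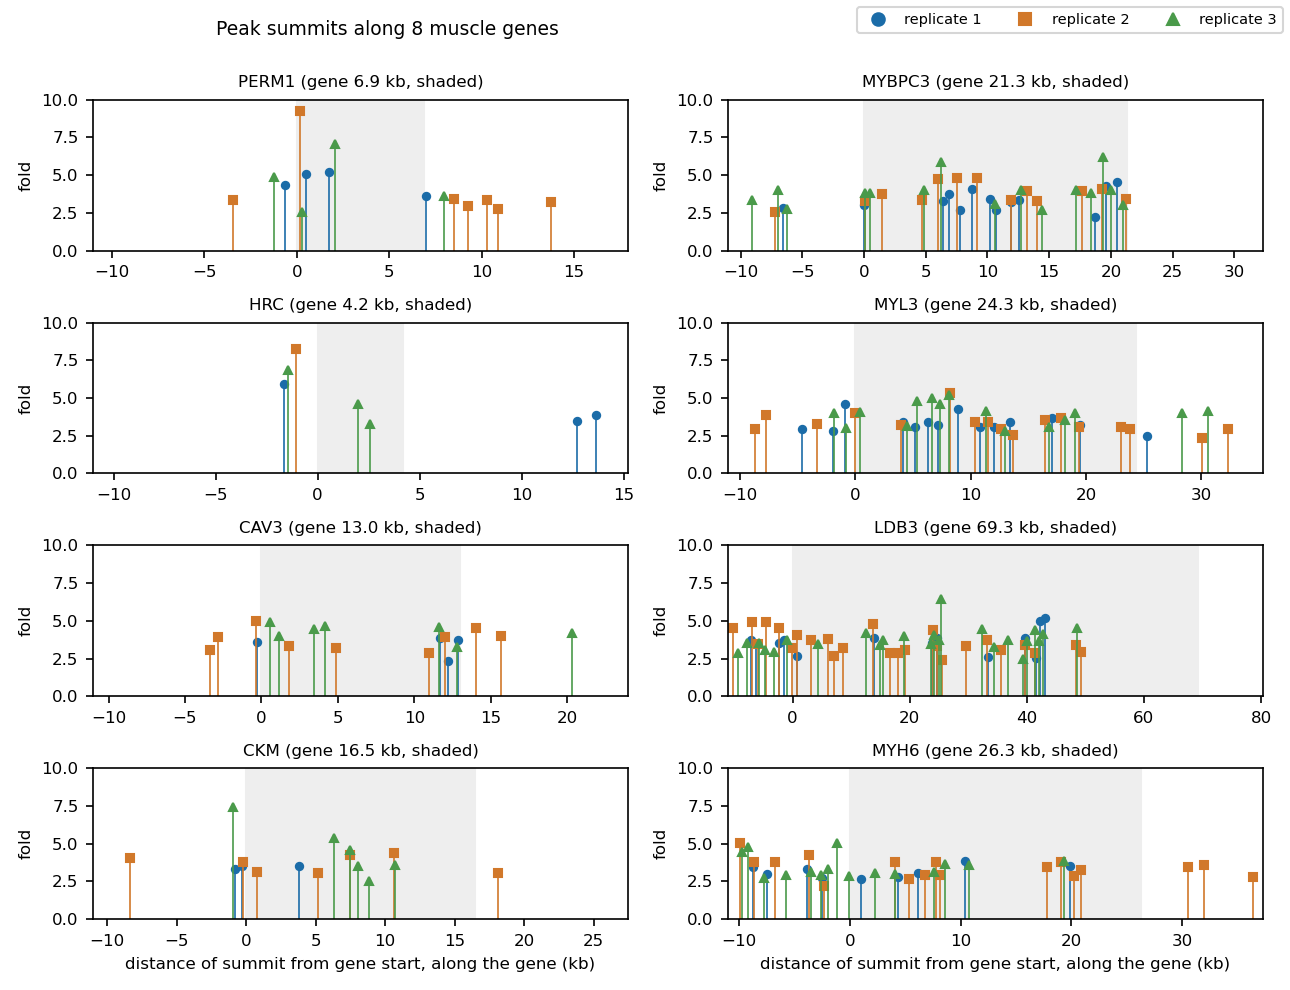
Position of every peak summit along 8 members, in kb from the gene start in the direction of transcription (shaded, the gene), with height as fold (authors' value) and colour as replicate. In HRC the strongest summits of all 3 replicates stand more than 1 kb before the start, outside the gene-end window. In MYBPC3, MYL3 and LDB3 summits of similar height run along the gene.

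Peaks on muscle genes were close to the whole lists in strength. Their median fold was 3.41, 3.49 and 3.68 in replicates 1, 2 and 3, beside 3.42, 3.40 and 3.61 over the whole lists, and their median width was 409, 557 and 424.5 bp, beside 401, 478 and 384 bp. Their median −log10 q was 4.10, 4.86 and 4.32, beside 3.88, 4.47 and 3.94, so it was higher on members in each replicate, as was the width, while the fold was higher in 2 of 3. The highest member folds were 5.90 at HRC in replicate 1, 9.28 at PERM1 in replicate 2 and 7.46 at CKM in replicate 3. With only peaks at a −log10 q of 5 or more, 4 members were called at gene ends in all 3 replicates, MYL3, MYBPC2, HRC and PERM1, beside 3.45% of protein-coding genes. With only the 5000 strongest peaks of each list, HRC and PERM1 were called, 2 of 49, beside 1.34%. At the other 15 of the 19 genes, at least 1 replicate had no gene-end peak at that −log10 q.

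Single sites matched less well between libraries than whole genes did. Overlapping member peaks merged into 365 regions, of which 68 (18.6%) were found in all 3 replicates, 72 in 2 and 225 in 1. At 15 of the 19 genes with a gene-end peak in every replicate, a gene-end region was common to all 3, and at MYL2, MYBPH, MYOG and SMTNL1 the replicates marked different stretches of the gene ends. MYLPF was among the 15 only because peaks in the gene body merged into its gene-end regions. The MYLPF gene-end peak itself lay at 1 end in replicate 1 and at the other end in replicates 2 and 3. At 7 of the 15 a gene end of a neighbour lay on the region too, as with CTSF beside ACTN3, SEPTIN1 beside MYLPF, GARIN5A beside MYBPC2, OPN4 beside LDB3 and RASGRP2 beside PYGM. At those genes the peak cannot be assigned to the muscle gene rather than its neighbour.

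The surroundings of the genes moved with the calls. Regional density, the number of summits per Mb in the 500 kb on either side of the extended gene, had a median of 38.7 over members and 23.7 over all protein-coding genes. Members with a peak in the extended gene in all 3 replicates had a median of 61.7 (12.0 to 144), and those with none had 1.5 (0 to 47.3). All protein-coding genes showed the same split, at 64.3 and 3.67. Of the 10 members in the lowest quartile of regional density, none had a peak, and of the 14 in the highest quartile, 13 had a peak in the extended gene in all 3 replicates, beside 4.29% and 66.3% of genes in those quartiles.

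At gene ends, members called in all 3 replicates numbered 0 of 10, 1 of 7, 8 of 18 and 10 of 14 from the lowest to the highest quartile, beside 0.472%, 2.77%, 11.6% and 21.2% of genes. The member share was above that of genes in like surroundings from the second quartile up, where it rested on 1 gene, XIRP1. Density on the gene itself exceeded that of its surroundings in all 3 replicates at 23 of 49 members (46.9%), beside 19.4% of protein-coding genes. Among genes with a peak in the extended gene in all 3 replicates, the shares were 23 of 28 (82.1%) for members and 57.1% for all. Members were chosen with these peaks known, so nothing is read from these differences, and the surroundings are not set aside by them.

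Individual genes departed from their neighbourhood in both directions. XIRP1 had 193 summits per Mb in surroundings with 12.0, CAV3 had 202 in 33.3, MYBPC3 had 331 in 32.3 and TCAP had 440 in 74.7. HRC and PERM1 lay in the densest surroundings of the strong genes, at 115 and 116, and HRC itself was at 96.4. MYH8 and MYH4 had no peak although the density around them was 47.3 and 38.7, and TMOD4 had none with peaks 25.3, 24.1 and 24.4 kb away. The part of the surroundings in the calls was not tested.

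**Figure D5:**
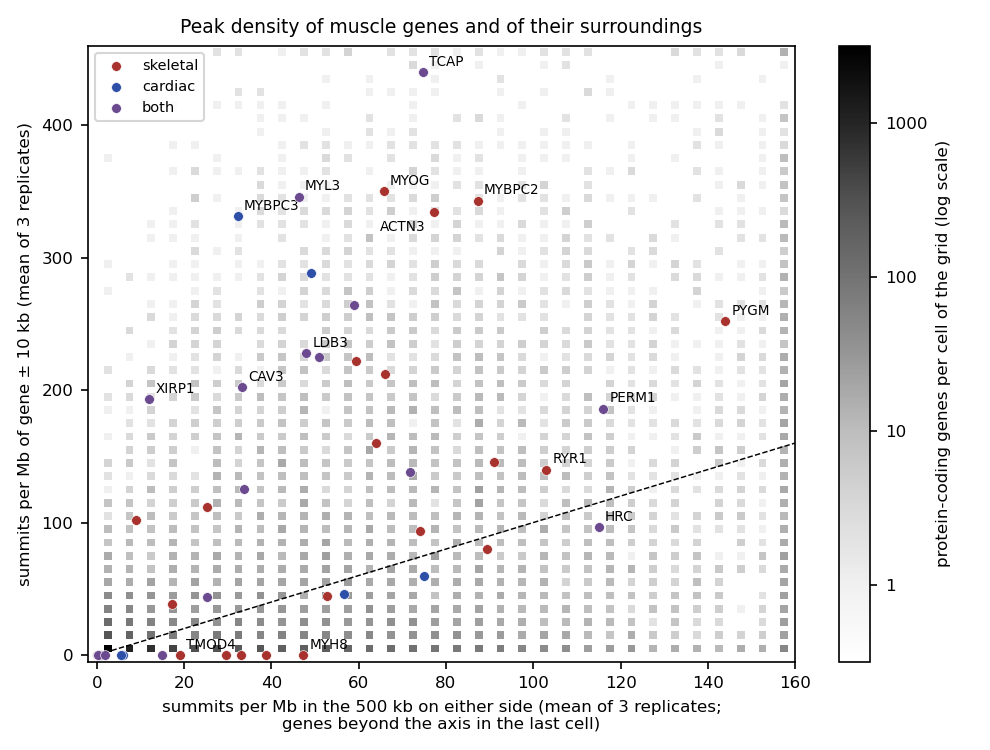
Summits per Mb on each extended gene against those in the 500 kb on either side, means of 3 replicates; coloured points are the 49 members by class, grey cells all protein-coding genes on a log shade, and the dashed line marks equal density. TCAP, MYBPC3, MYL3 and XIRP1 stand far above the line, HRC just below it, and MYH8 at 0.

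Other striated muscle genes, a list of 72 that holds none of the members, were counted in the same way. A gene-end peak in all 3 replicates was called at 21 (29.2%), a peak in the extended gene at 38 (52.8%), and 24 (33.3%) had no peak. Over all protein-coding genes these shares were 9.03%, 34% and 43.3%. Among the highest mean gene-end folds were 5.01 ± 0.208 at SPEG, a kinase of the triad, and 4.92 ± 1.10 at PAX7, the satellite cell factor (SD, n = 3). SGCA, a sarcoglycan of the membrane complex, had 4.75 ± 1.24, HSPB7, a small heat shock protein of heart, 4.69 ± 0.631, and TPM1, a tropomyosin, 4.68 ± 0.894 (SD, n = 3). This list too was written with results of these libraries known.

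Widely expressed relatives of the members, 25 genes such as non-muscle actins, myosins and calcium pumps, were counted beside them. They had a gene-end peak in all 3 replicates at 3 (12.0%), near the 9.03% of all protein-coding genes. The 3 were ATP2A3, a calcium pump, at 3.61 ± 0.602, CAV1, the general caveolin, at 3.58 ± 0.749, and ACTG1, a cytoplasmic actin, at 3.22 ± 1.09 (SD, n = 3). Over the extended gene, 15 (60.0%) had a peak in all 3 replicates and 3 (12.0%) had none, beside 34% and 43.3% of all protein-coding genes. The members stood at 38.8% at gene ends and 57.1% over the extended gene, and no test of this difference was made. Both lists were chosen with results of these libraries known, and gene length was not matched between them.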

How the data were processed

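Peak tables of 3 AcNEIL1 ChIP libraries were used, grouped and numbered by the sample titles; the 3 inputs entered only as the authors' controls. Per the file headers, each replicate's peaks were called separately by MACS 2.1.1.20160309 on hg38, at a q-value cutoff of 0.05 and with at most 2 tags per position. The submitters' processing notes also name Bowtie2, SAMtools, bedtools, Trim Galore, cutadapt and FastQC, with no role given. Builds named with the series are GRCh37 and hg19 as well as GRCh38 and hg38. The deposited signal is the summit pileup of tags extended to 268, 294 and 249 bp. Significance is deposited as −log10 of p and of q. The deposited fold is the ratio of summit pileup to local background, and it served only for description and ranking inside each list. Inputs held 32877739, 37772127 and 33606858 tags after the duplicate filter.

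Gene positions and promoters came from RefSeq tables of GRCh38.p14, the build of the peaks: 48 members matched by symbol and 1 by an older symbol. Only chromosomes 1 to 22 and X were used. No promoter entry was matched for 13 members: MYOD1, CSRP3, PYGM, ACTN3, SLN, MYL2, MYH7, SRL, MYH3, TCAP, MYL4, MYBPC2 and MYH7B. Counts, densities and mean ± SD over the 3 replicates were computed in Python 3.11.15 with numpy 2.4.6 and pandas 2.3.3, checked on simulated data, and drawn with matplotlib 3.10.9.

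The members, classes, roles and comparison lists were chosen with earlier results of these data known. Named were all members with a gene-end peak in all 3 replicates, those with a peak elsewhere in the extended gene in all 3, the remaining members with their counts, and up to 6 genes of each other list. One gene that this rule takes is not reported here. Alternatives were stricter peaks, the strongest 20000 or 5000, summits, other windows, other numbers of replicates, leaving out each replicate, 1 member per shared extended gene and another class assignment.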

Additional observations from a re-analysis of the deposited data

How the results depend on the processing

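The 5 summary results had 54 values under alternative settings, and 39 stayed within 1.5 times the reported count or within 1 SD of the reported value. These limits were loose. The summit rule could not change the density, which counts summits throughout, and leaving out a replicate cannot lower an all-replicate count. The density SD of 0.543 admitted even 0.252, with the 20000 strongest peaks. For the skeletal minus cardiac difference, the SD of 12.4 was that of the differences by replicate. Members with a gene-end peak in all 3 replicates (19) were 4 at a −log10 q of 5 or more, 7 with the 20000 strongest peaks, 2 with the 5000 strongest, 9 with a 500 bp window, and 20 to 22 without 1 replicate. Over all protein-coding genes the shares under those peak sets and that window were, in order, 3.45%, 4.65%, 1.34% and 6.02%. Members with a peak in the extended gene (28) were 17 at a −log10 q of 5 or more, 8 with the 5000 strongest, and 28 to 29 without 1 replicate. The same 2 peak sets gave 17.2% and 7.17% of all protein-coding genes. The median of 0.711 summits per 10 kb was 0.123 and 0 under those 2 peak sets, and 0.398 to 0.890 without 1 replicate. Members without any peak (18) were 30 with the 5000 strongest and 18 to 19 without 1 replicate; the alternatives for this count were chosen after seeing the data. The skeletal minus cardiac difference in gene-end calls (19.5 points) was 4.0 at a −log10 q of 5 or more, 0 with the 5000 strongest, -0.5 with a 500 bp window, 2.5 for calls in at least 2 replicates, 1.23 with the other class assignment, and 7.0 to 23.5 without 1 replicate, the lowest without replicate 2; fewer or stronger peaks are admitted by construction in the first pair, and the cause was otherwise not tested. With 1 member kept where extended genes overlap, 46 members remained. The summit rule left the 14 gene-end folds it could give within 1 SD and gave none for MYL2, MYLPF, MYBPC2, HRC and PYGM, whose summits lay outside the window in at least 1 replicate. No paired analysis was possible because there was 1 group of peak lists, each already called against the input of its own number. Depth limits the absences: a gene without a peak is one at which nothing passed the cutoff.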

Other observations

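Smooth muscle genes, a list of 12 contractile genes of vessels and gut, had a gene-end peak in all 3 replicates at 1 (8.33%), near the 9.03% of all protein-coding genes. It was DES, which encodes the filament desmin and also stands in the list of other striated muscle genes, at a fold of 3.73 ± 0.330 (SD, n = 3). In at least 2 replicates the count was 4 (33.3%), beside 15.2%. Over the extended gene, 7 of the 12 had a peak in all 3 replicates, beside 34% of all protein-coding genes. ACTA2, CALD1 and MYOCD had none in any replicate, as did 43.3% of all protein-coding genes. The 12 genes are few, and no test was made between the lists.

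Genes of the neuromuscular junction among the other striated genes differed from each other. CHRND and CHRNG, subunits of the muscle acetylcholine receptor that neighbour each other on chromosome 2, had 11, 13 and 15 peaks and 4, 8 and 7 peaks in replicates 1, 2 and 3. Their gene-end folds were 4.51 ± 1.29 and 3.25 ± 0.132 (SD, n = 3), and their extended genes overlap, so some peaks were counted for both. DOK7, an activator of the receptor kinase MUSK, had 20, 14 and 20 peaks, and CHRNB1, a further subunit, had 5, 3 and 7, none of them at a gene end. CHRNA1, CHRNE and MUSK itself had no peak in any replicate. These junction genes were chosen after their values were seen.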
